A study of Mus musculus with 6 samples.

Results

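The genes of the mitochondrial ribosome were examined in T follicular helper (Tfh) cells that lack Bob1, a coactivator of Oct transcription factors encoded by *Pou2af1*. Members were chosen by name, as every gene whose symbol starts with *Mrpl* (large subunit) or *Mrps* (small subunit) and a digit. The deposited comparison of both groups holds 75 such names, 46 *Mrpl* and 29 *Mrps*, and 74 of them had a mean of at least 1 FPKM over the 6 libraries and were tested among 10199 genes. FPKM are fragments scaled to the length of the transcript and to the depth of the library. Levels of different genes can be compared only as far as the transcript length that was used holds. *Mrps23*, a small subunit gene on chromosome 11, was the member left out. It was listed at 0 in all 6 libraries, and nothing on its expression is drawn from this. The lowest member tested was *Mrpl47* with a mean of 9.31 FPKM, so that no member lay near the limit. Another 2 names are joint loci, *Mrpl12,Slc25a10* and *Mrps6,Slc5a3*, where the value also holds the reads of the neighbouring transporter gene.

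RNA came from 3 libraries of FoxP3GFP/DTR CD4Cre/+Bob1fl/fl mice (Bob1KO) and 3 libraries of FoxP3GFP/DTR CD4+/+Bob1fl/fl mice (WT). Both groups carried the floxed *Pou2af1* alleles and the FoxP3GFP/DTR reporter on a C57BL/6 background, and were littermates of 6 to 12 weeks. All were immunized intraperitoneally with 100 µg of NP-CGG in complete Freund's adjuvant, and spleens were taken on day 7. Tfh cells were sorted as GFP-negative CD3+CD4+CXCR5+PD-1+ cells, 0.7 ng of RNA was amplified per library, and each library came from an experiment with 10 to 12 mice. Cre was driven by the *Cd4* promoter, which is active in developing T cells, so that the gene was also deleted in T cells outside the sorted gate.

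Mitochondria keep their own ribosome, which translates the few respiratory chain and ATP synthase subunits that mitochondrial DNA still encodes. All of its proteins are encoded in the nucleus, made in the cytosol and imported. About the bacterial core of the particle, mammals have added many proteins with no bacterial relative, and the large subunit is anchored to the inner membrane, where its products are inserted. T cells enlarge their mitochondrial mass and raise mitochondrial translation after activation, which makes this set of genes of interest in cells taken from an ongoing response.

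The targeted gene was read first. *Pou2af1* was at 1.16, 0.237 and 0.317 FPKM in Bob1KO libraries, against 46.1, 32.5 and 34.4 FPKM in WT libraries, a log2 difference of -4.65 ± 0.26 (SE, adjusted P = 0.00292, limma). All 9 Tfh markers listed (among them *Cxcr5*, *Pdcd1* and *Bcl6*) passed the limit, with sums of 2331 to 3093 FPKM in Bob1KO libraries and 2193 to 3158 FPKM in WT libraries. Of the B cell markers, *Ms4a1* and *Pax5* stayed below 1 FPKM in every library, and *Cd22* reached 17.8 to 44.9 FPKM. Of 9 myeloid markers, 8 had a value, and their sum was 3724, 71.8 and 1014 FPKM in Bob1KO libraries and 565, 435 and 745 FPKM in WT libraries, so that Bob1KO 1 stood apart. Sums over 7 NK and CD8 markers were 27.8 to 31.0 FPKM in Bob1KO libraries and 22.5 to 35.9 FPKM in WT libraries, and the 3 erythroid markers with a value reached 9.59 FPKM at most. In both replicate 2 libraries the Y-linked *Eif2s3y* was expressed (54.6 FPKM in Bob1KO 2 and 46.4 FPKM in WT 2), while it was at most 0.03 FPKM in the other 4. The part that these differences play in the values below was tested only where a library was left out.

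Mitochondrial ribosomal protein genes were abundantly expressed in these cells. The mean over the 6 libraries had a median of 42.6 FPKM over the 74 members, against 15.4 FPKM over all genes tested, and lay between 9.31 and 185 FPKM, a 19.8-fold range. The 5 most abundant members were *Mrps21*, *Mrps6,Slc5a3*, *Mrpl52*, *Mrpl33* and *Mrpl54*. *Mrps21*, a bacterial-type protein of the small subunit, had 210, 158 and 140 FPKM in Bob1KO libraries and 185, 188 and 228 FPKM in WT libraries. *Mrpl52*, a mammalian addition to the large subunit, had 212, 141 and 131 FPKM in Bob1KO libraries and 166, 169 and 161 FPKM in WT libraries. Both genes were thus spread over both groups with overlap. *Mrpl54* was at 94.3 to 116 FPKM in Bob1KO libraries and 104 to 117 FPKM in WT libraries. The joint locus of *Mrps6* and *Slc5a3* was at 119 to 223 FPKM in Bob1KO libraries and 137 to 178 FPKM in WT libraries.

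The 5 least abundant members tested were *Mrpl47*, *Mrps25*, *Mrpl1*, *Mrpl50* and *Mrps22*, which belong to both subunits. *Mrpl47*, the counterpart of bacterial L29 at the peptide exit, had 9.57, 9.09 and 8.48 FPKM in Bob1KO libraries and 8.16, 9.79 and 10.8 FPKM in WT libraries. *Mrpl1*, the protein of the L1 stalk, had 10.8, 9.06 and 10.9 FPKM in Bob1KO libraries and 10.1, 8.26 and 14.7 FPKM in WT libraries. *Mrps22*, a mitochondria-specific small subunit protein, had 10.6, 11.5 and 12.2 FPKM in Bob1KO libraries and 11.3, 10.2 and 13.5 FPKM in WT libraries. The groups overlapped in each of these 3, with log2 differences of -0.07 for *Mrpl47*, -0.06 for *Mrpl1* and -0.03 for *Mrps22*, all smaller than their SE. Most members varied little between libraries. The highest library exceeded the lowest by a median of 1.43-fold, and by more than 2-fold in 8 members.

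The main question was whether the set differed between Bob1KO and WT Tfh cells. No member passed an adjusted P of 0.05 (limma), and the lowest adjusted P among them was 0.91. The same fit called 2 genes of all those tested (0.0196%), *Pou2af1* and *Pcsk1*. At an unadjusted P below 0.05, 2 members were lower in Bob1KO, *Mrps9* and *Mrpl45* (2.7% of members, against 2.18% of all genes), and 0 were higher (against 3.21% of all genes). The 3 Bob1KO values lay below all 3 WT values in 5 members (6.76%, against 4.82% of all genes) and above them in 0 (against 5.83%). All of these shares of lower members are near those of all genes. In bulk RNA such as this, fewer cells of a type and less RNA per cell cannot be told apart. The differences were also small. The log2 difference was within 0.3 of 0 in all but 8 members, and in 46 of 74 it was smaller than its own SE, the median SE being 0.15.

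What stood out was the sign. The log2 difference was below 0 in 58 of 74 members (78.4%), against 50.7% of all genes tested, with a median of -0.09 in members and -0.0033 in all genes. Members share their libraries, so that these counts are not 74 separate observations, and no test was made over the set. The levels by library show where the sign came from. On the log2 scale the median member deviated from its mean over the 6 libraries by 0.06, -0.17 and -0.09 in Bob1KO 1, 2 and 3, against -0.04, 0.01 and 0.19 in WT 1, 2 and 3. Over all genes tested the same median stayed between -0.06 and 0.06. The groups therefore overlapped, with Bob1KO 1 above WT 1 and WT 2.

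**Figure D1:**
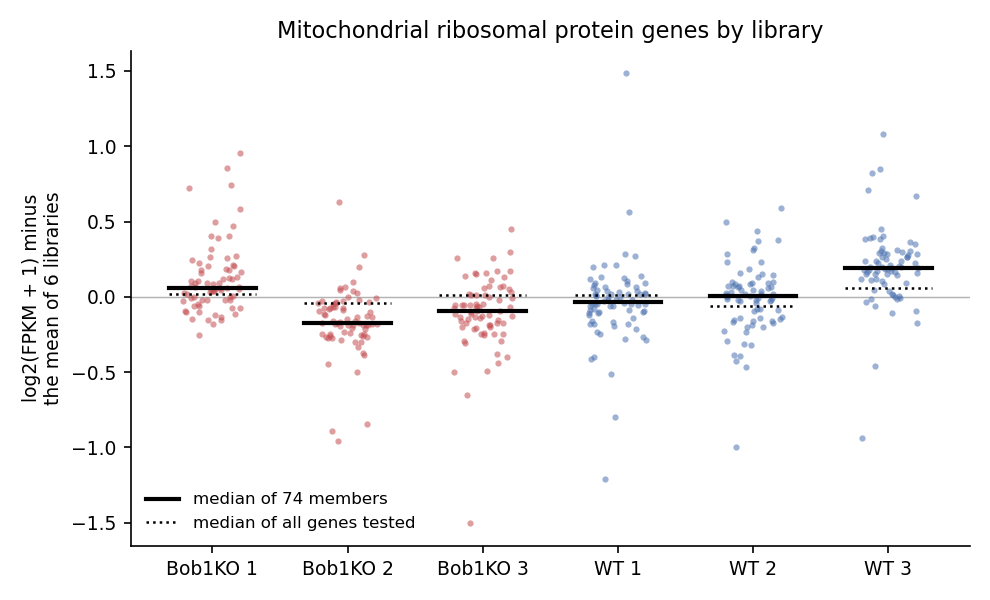
Level of each of 74 mitochondrial ribosomal protein genes (points) in each library, as log2(FPKM + 1) minus its mean over the 6 libraries, with the median of the members (solid line) and of all genes tested (dotted line). Members were shifted downwards in Bob1KO 2 and Bob1KO 3 and upwards in WT 3, while Bob1KO 1 lay above WT 1 and WT 2.

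WT 3 was the highest of the 6 libraries in 40 of 74 members (54.1%, against 26.9% of all genes tested). Bob1KO 2 was the lowest in 30 members (40.5%, against 20.1% of all genes), and Bob1KO 3 in 21 (28.4%, against 15.7%). Bob1KO 1 was the highest in 16 members and the lowest in 1. In sum, the members reached 4192, 3407 and 3395 FPKM in Bob1KO libraries, against 3676, 3827 and 4348 FPKM in WT libraries, or 0.865%, 0.755% and 0.762% against 0.801%, 0.822% and 0.877% of the FPKM of all genes tested. These sums overlap between the groups. Relative to WT 1, the depth was 1.04, 1.32 and 0.913 in Bob1KO libraries and 1.04 and 1.15 in WT 2 and WT 3. Each of these ratios rests on 37 to 57 genes of 1 fragment. Both the deepest library, Bob1KO 2, and the shallowest, Bob1KO 3, were among those with low members, and the part of depth was not tested.

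The number of lower members followed the library that was left out. Without WT 3, 42 of 74 members (56.8%) were lower in Bob1KO, against 45.3% of all genes, and the median log2 difference was -0.04. Without Bob1KO 1, which holds the highest myeloid sum, 62 members were lower (83.8%, against 52.3% of all genes), the median was -0.17, and the 2 remaining Bob1KO values lay below all WT values in 29 members (39.2%, against 11.6% of all genes). Pairs of same-numbered libraries were also left out, as alternatives chosen after the data had been seen for pairs 1 and 3. Without both replicate 3 libraries, 38 of 74 members were lower (51.4%, against 46.6% of all genes), the median was -0.0040, and non-overlapping members were 5 below (6.76%, against 12.8% of all genes) and 10 above (13.5%, against 16% of all genes). Without both replicate 1 libraries, 63 were lower (85.1%, against 51.2%), with a median of -0.23 and 39 members below without overlap (52.7%, against 18.8% of all genes). Without both replicate 2 libraries, which alone held Y-linked transcripts, 50 were lower (67.6%, against 53.1%), with a median of -0.09 and 13 members below without overlap (17.6%, against 18% of all genes). The excess of lower members over all genes was smallest without the third pair and, among single libraries, without WT 3.

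**Figure D2:**
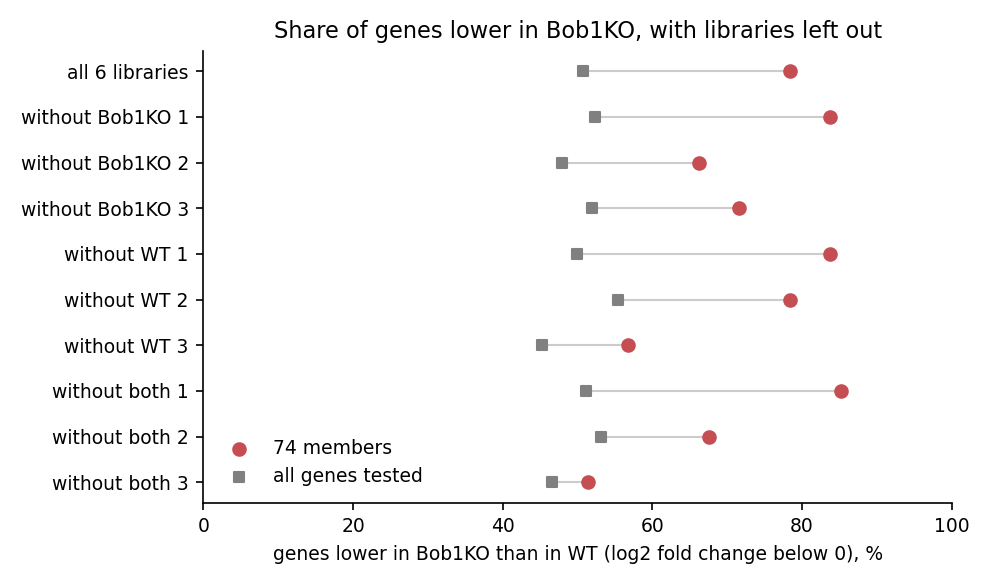
Percentage of the 74 members (circles) and of all genes tested (squares) with a log2 fold change below 0, Bob1KO minus WT, with all 6 libraries and with single libraries or pairs left out. Members ranged from 51.4% without both replicate 3 libraries to 85.1% without both replicate 1 libraries, while all genes stayed between 45.3% and 55.4%.

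In both subunits, and among proteins listed with and without a bacterial counterpart, the median log2 difference was slightly below 0. Differences between these groups were not tested. Of 29 large subunit proteins with a bacterial counterpart, 23 had a log2 difference below 0, with a median of -0.08. Of 18 large subunit proteins listed as particular to mitochondria, 16 did, with a median of -0.10. *Mrpl55*, with a log2 difference of 0.09, was counted among these 18. In the small subunit the sign was negative in 12 of 17 proteins with a bacterial counterpart (median -0.08) and in 6 of 8 mitochondria-specific ones (median -0.10). These medians lay close together, while single members had SE of 0.099 to 0.60. *Mrps18a*, a paralog of the S18 protein that sits in the large subunit, had a log2 difference of -0.18 ± 0.13 (SE). *Mrps36*, which carries a ribosomal name but is known as a component of the 2-oxoglutarate dehydrogenase complex, had 63.3, 34.7 and 34.1 FPKM in Bob1KO libraries and 39.3, 36.4 and 50.5 FPKM in WT libraries, with a log2 difference of 0.02. Its level was high in the same Bob1KO 1 and WT 3 libraries as many members.

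**Figure D3:**
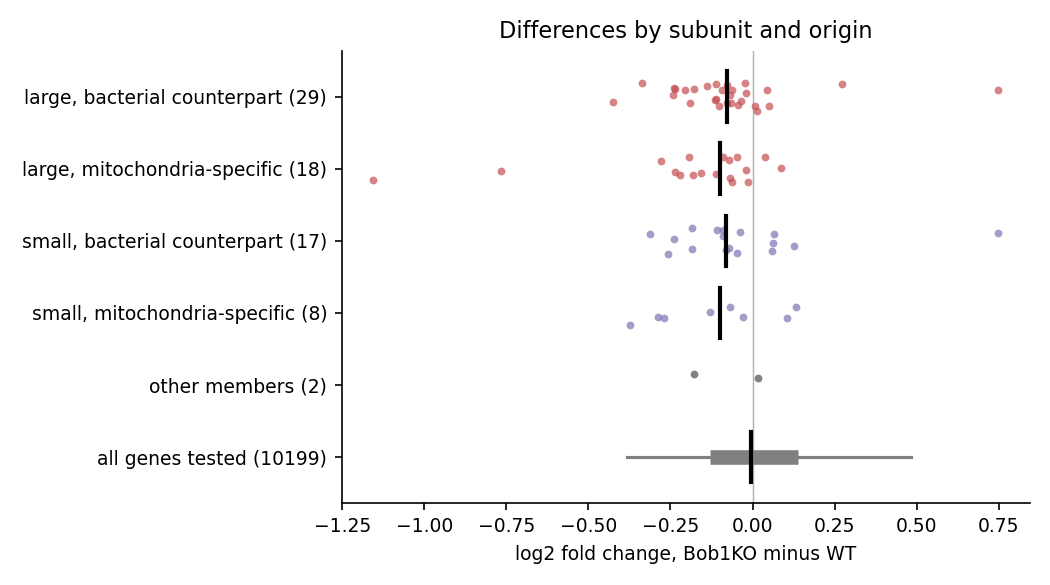
Log2 fold change, Bob1KO minus WT, of each member (points) by subunit and by listed bacterial counterpart, with group medians (vertical bars). The bottom row gives the middle 50% (thick bar) and middle 90% (thin bar) of 10199 genes tested. Group medians lay between -0.10 and -0.08, and nearly all members fell within the range of all genes.

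*Mrps9* had the smallest P of the members. It encodes the counterpart of bacterial S9, a protein of the head of the small subunit, and lies at chr1:42851233-42905683 (GRCm38). It was at 22.8, 21.3 and 24.2 FPKM in Bob1KO libraries, against 27.1, 30.0 and 28.4 FPKM in WT libraries, without overlap (22.7 ± 1.4 against 28.5 ± 1.5 FPKM, SD, n = 3 each). Its log2 difference was -0.31 ± 0.11 (SE, unadjusted P = 0.024 and adjusted P = 0.91, limma), and it stayed between -0.36 and -0.27 with any library left out. *Mrpl45*, at chr11:97314923-97329920, encodes a mitochondria-specific protein of the large subunit near the peptide exit, known for contact with the inner membrane. It was at 27.7, 13.1 and 18.8 FPKM in Bob1KO libraries, against 28.9, 27.7 and 45.1 FPKM in WT libraries. The groups overlapped only in that WT 2 lay just below Bob1KO 1. The log2 difference was -0.77 ± 0.29 (SE, unadjusted P = 0.033 and adjusted P = 0.91, limma), and the value spanned 3.45-fold between libraries.

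Another 4 members had lower values in every Bob1KO library than in any WT library. *Mrpl4*, whose bacterial counterpart lines the exit tunnel, lies at chr9:21001252-21008839 and was at 83.8, 78.7 and 80.7 FPKM in Bob1KO libraries, against 95.7, 88.6 and 104 FPKM in WT libraries (log2 difference -0.24 ± 0.10, SE). *Mrpl46*, a mitochondria-specific large subunit protein at chr7:78775341-78783089, was at 39.8, 38.0 and 40.6 FPKM in Bob1KO libraries, against 46.8, 41.9 and 49.96 FPKM in WT libraries (-0.22 ± 0.11, SE). In both, WT 3 was the highest library and WT 2 the WT value nearest to Bob1KO. *Mrpl50*, at chr4:49512597-49521083, was at 9.70, 10.7 and 9.05 FPKM in Bob1KO libraries, against 11.2, 11.7 and 13.5 FPKM in WT libraries (-0.28 ± 0.14, SE). *Mrpl32*, at chr13:14610301-14613037, whose protein is cleaved by the m-AAA protease before it joins the ribosome, was at 39.8, 40.5 and 39.0 FPKM in Bob1KO libraries, against 41.5, 55.5 and 42.3 FPKM in WT libraries (-0.21 ± 0.14, SE). For *Mrpl32* the difference came mostly from WT 2, without which it was -0.07. The deposited rows of *Mrpl50* and *Mrpl32* differed in kind between libraries, as given below. Adjusted P was at least 0.91 for each of the 4 (limma), and an exact permutation test of 3 libraries against 3 gave the smallest two-sided P it can, 0.1, for *Mrps9* and for each of these.

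**Figure D4:**
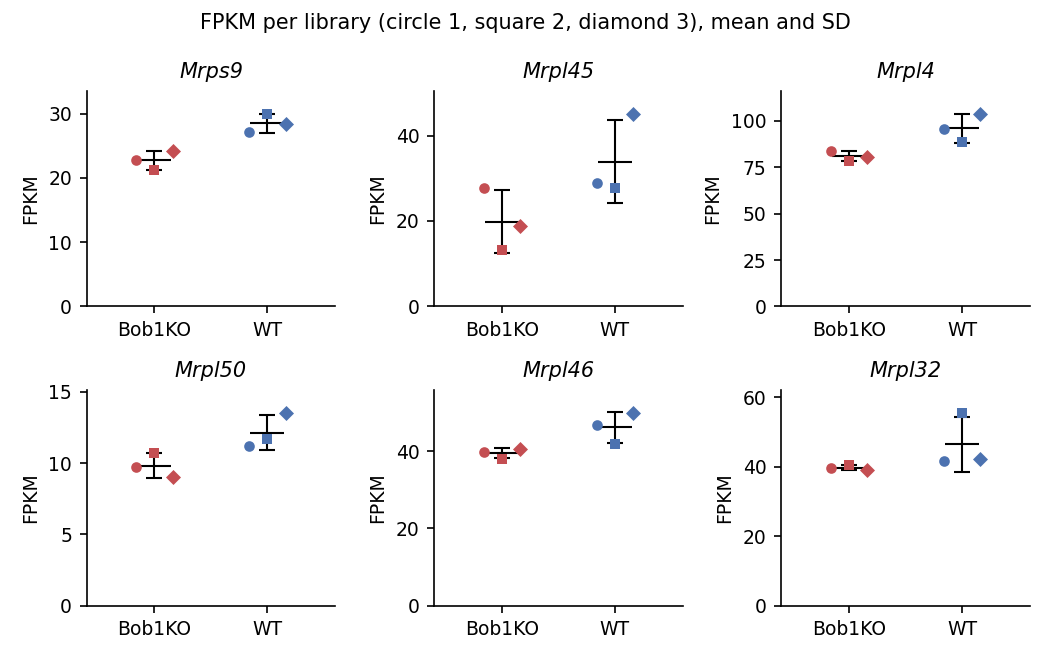
FPKM of the 6 members whose groups do not overlap or whose unadjusted P was below 0.05, per library (circles replicate 1, squares replicate 2, diamonds replicate 3), with mean and SD of 3 libraries each of Bob1KO (left) and WT (right). *Mrps9* was at 21.3 to 24.2 FPKM in Bob1KO libraries and at 27.1 to 30.0 FPKM in WT libraries.

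Besides *Mrpl45*, given above, the largest differences belonged to members whose level changed abruptly between libraries of a group. *Mrpl41*, a mitochondria-specific large subunit protein, was at 64.6, 19.5 and 13.01 FPKM in Bob1KO libraries, against 57.6, 55.2 and 62.3 FPKM in WT libraries. The log2 difference of -1.16 ± 0.51 (SE, adjusted P = 0.91, limma) rested on Bob1KO 2 and 3, and was -1.81 without Bob1KO 1 (adjusted P = 0.11, limma). *Mrpl35*, with a bacterial L35 counterpart, was at 33.4, 17.5 and 18.3 FPKM in Bob1KO libraries, against 6.70, 7.90 and 36.7 FPKM in WT libraries (0.75 ± 0.60, SE), and its log2 difference was 0.33 without WT 1 and 1.48 without WT 3. *Mrps14*, with a bacterial S14 counterpart, was at 116, 107 and 57.6 FPKM in Bob1KO libraries, against 47.9, 86.1 and 35.4 FPKM in WT libraries (0.75 ± 0.37, SE, unadjusted P = 0.083, limma). Its Bob1KO value was the higher in all 3 same-numbered pairs, and with the replicate number as a block the SE was 0.20 (unadjusted P = 0.012 and adjusted P = 0.65, limma). *Mrpl19*, with a bacterial L19 counterpart, was at 26.6, 7.47 and 8.69 FPKM in Bob1KO libraries, against 7.75, 21.97 and 26.4 FPKM in WT libraries (-0.43 ± 0.57, SE), and its log2 difference was -0.96 without Bob1KO 1 and -0.11 without Bob1KO 2. *Mrps25*, a mitochondria-specific small subunit protein, was at 6.85, 7.08 and 7.80 FPKM in Bob1KO libraries, against 25.2, 5.78 and 5.82 FPKM in WT libraries, and its log2 difference of -0.37 became 0.28 without WT 1. In each of these 5 genes the libraries of at least 1 group lay far apart, while the WT libraries of *Mrpl41* and the Bob1KO libraries of *Mrps25* lay close together.

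In these genes the deposited row itself differed between libraries, and the part of this in their values was not tested. Members with like rows were also read alone, which leaves these genes out. The authors assembled transcripts in each library, so that a gene can stand in a row taken from the annotation in one library and in an assembled row, with other exons and another length, in the next. Among the members tested, 39 had rows of 1 kind with like ends in all 6 libraries, 15 stood in an annotation row in some libraries and in an assembled row in others, and another 2, *Mrpl12,Slc25a10* and *Mrpl36*, had rows of both kinds within single libraries. The rest stood in assembled rows throughout, with starts or ends more than 50 bases apart or with more than 1 row in a library. *Mrpl19* was at 7.47 to 8.69 FPKM in the 3 libraries with an annotation row and at 21.97 to 26.6 FPKM in the 3 with an assembled row, whatever the group. *Mrpl35* was at 6.70 and 7.90 FPKM in the 2 libraries with an annotation row and at 17.5 to 36.7 FPKM in the other 4. *Mrps14* and *Mrpl39* were also lowest in their single library with an annotation row. *Mrpl32* stood in an annotation row in WT 3 only, and *Mrpl50* in an assembled row in WT 2 only. Over the 15 the assembled value was above the annotation value in 9, with a median log2 difference of 0.09. The assembled values lay above the annotation values without overlap in 4 and below them in 1, *Mrps22*. The rows of *Mrpl41* and *Mrps25* were all assembled, but their ends lay up to 814 bases apart in *Mrpl41* and their starts up to 724 bases apart in *Mrps25*. Some other members had larger gaps, with ends 881 bases apart in *Mrps21* and starts 7109 bases apart in *Mrpl38*. In *Mrpl15* the starts lay 106572 bases apart, more than the span of the gene (chr1:4773198-4785750). Whether the value of *Mrpl15* also holds reads of other genes was not tested. Of the 8 members that spanned more than 2-fold, 2 had like rows throughout, *Mrpl45* and *Mrpl55*. Among the 39 members with like rows, an alternative chosen after the data had been seen, 33 were lower in Bob1KO (84.6%, against 50.7% of all genes), the median log2 difference was -0.11, and 3 were below without overlap (7.69%, against 4.82%).

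**Figure D5:**
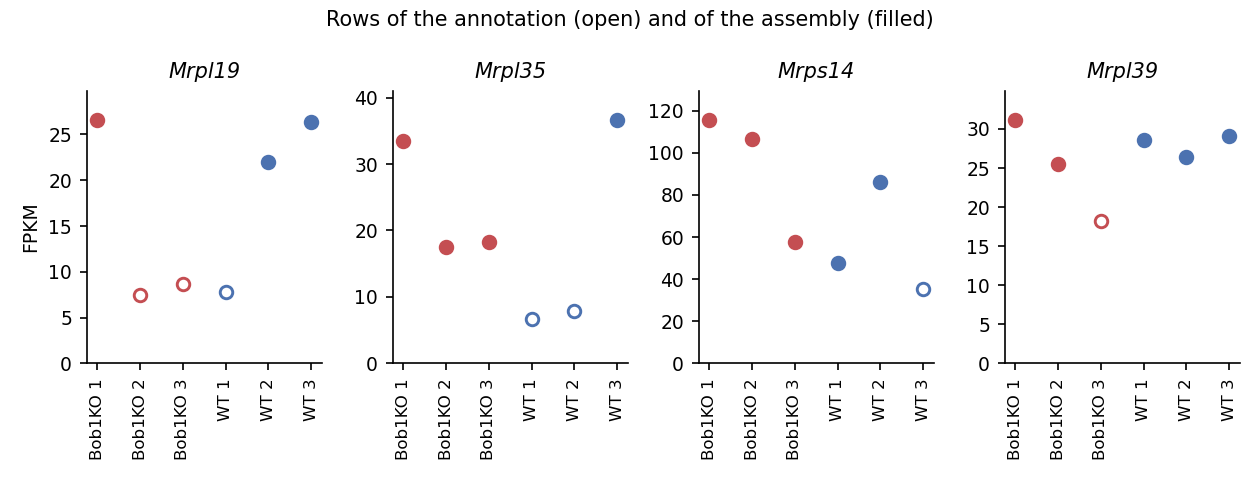
FPKM of 4 members in each library, Bob1KO left of WT, with open circles where the value stands in a row of the annotation and filled circles where it stands in a row of the assembly. The genes were chosen after their values were seen, as those of the 15 members with both kinds of row in which every assembled value exceeds every annotation value, such as *Mrpl19* with 21.97 to 26.6 FPKM against 7.47 to 8.69 FPKM.

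Members with a large difference and without such jumps were few. *Mrpl33*, a short bacterial-type large subunit protein, was at 161, 144 and 115 FPKM in Bob1KO libraries, against 153, 183 and 193 FPKM in WT libraries, with a log2 difference of -0.34 ± 0.16 (SE, adjusted P = 0.93, limma). *Mrps26*, a mitochondria-specific small subunit protein, was at 86.0, 72.9 and 79.2 FPKM in Bob1KO libraries, against 107, 79.3 and 107 FPKM in WT libraries (-0.29 ± 0.15, SE). In both genes the groups overlapped at 1 WT library, WT 1 for *Mrpl33* and WT 2 for *Mrps26*.

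The deposited table of both groups gives the authors' group value, 1 FPKM per gene and group, made on 1 common assembly, so that rows do not change between groups. In these pooled columns 68 of 74 members were lower in Bob1KO (91.9%), against 49.7% of 10180 genes with a value in both. The median log2 ratio of the members on the log2(FPKM + 1) scale was -0.11, and members ranged from -0.40 to 0.08. In some members the level in these columns was far from that in the libraries. *Mrpl41* was at 15.7 FPKM in Bob1KO and 19.7 FPKM in WT, while its WT libraries were at 55.2 to 62.3 FPKM. *Mrpl35* was at 36.01 FPKM in Bob1KO and 44.3 FPKM in WT, each above every library of the same group. *Mrpl17* was at 6.16 FPKM in Bob1KO and 6.5 FPKM in WT. Its libraries were at 36.7 to 67.8 FPKM in Bob1KO and 40.01 to 54.3 FPKM in WT. Why these levels differ was not tested, so that the columns and the libraries may not measure the same transcripts. *Mrps14*, which was higher in Bob1KO by the library rows, was at 35.4 FPKM in Bob1KO and 38.5 FPKM in WT here. The columns have no spread, rest on the same 6 libraries, and are no separate support for the sign.

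Genes that work with the mitochondrial ribosome were read from lists, in the same fit. The mitochondrial ribosome also holds subunits named otherwise, of which 7 were tested, and 6 had a log2 difference below 0, with a median of -0.17 and none at an unadjusted P below 0.05. *Chchd1* was at 49.2 to 59.3 FPKM in Bob1KO libraries and 56.9 to 69.1 FPKM in WT libraries. *Ptcd3*, which binds the small subunit, was at 21.0 to 22.8 FPKM in Bob1KO libraries and 21.2 to 29.7 FPKM in WT libraries. *Ict1*, a peptidyl-tRNA hydrolase built into the large subunit, was at 64.3 to 86.9 FPKM in Bob1KO libraries and 79.2 to 102 FPKM in WT libraries. *Mrp63* spread from 22.5 to 119 FPKM in Bob1KO libraries and from 18.5 to 73.6 FPKM in WT libraries.

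Of 23 assembly factors, 18 had a log2 difference below 0, but the median was -0.03, and 1 was higher at an unadjusted P below 0.05. This was *Ddx28*, an RNA helicase of large subunit assembly, at 36.6, 34.5 and 31.9 FPKM in Bob1KO libraries, against 24.0, 21.9 and 22.5 FPKM in WT libraries. It was 0.57 ± 0.11 higher on the log2 scale in Bob1KO (SE, unadjusted P = 0.0012 and adjusted P = 0.37, limma), the opposite sign to most members, and the groups were far apart. *Mtg1*, a GTPase of the same process, was at 8.12 to 11.3 FPKM in Bob1KO libraries and 10.3 to 16.7 FPKM in WT libraries. *Trub2* was at 8.89 to 13.5 FPKM in Bob1KO libraries and 10.4 to 14.3 FPKM in WT libraries, and *Fastkd2* at 10.6 to 11.1 FPKM in Bob1KO libraries and 10.8 to 15.6 FPKM in WT libraries.

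Translation factors of mitochondria numbered 15, of which 9 were below 0 with a median of -0.06 and none at an unadjusted P below 0.05. *Guf1*, an elongation factor of the LepA family, was at 7.37, 11.2 and 12.2 FPKM in Bob1KO libraries, against 16.7, 11.6 and 15.6 FPKM in WT libraries. *Mtrf1l*, a release factor, was at 9.42 to 10.9 FPKM in Bob1KO libraries and 3.95 to 9.11 FPKM in WT libraries, without overlap and higher in Bob1KO. *Oxa1l*, the insertase to which the ribosome docks, was at 16.7 to 23.9 FPKM in Bob1KO libraries and 23.7 to 24.4 FPKM in WT libraries. *Tufm*, the elongation factor EF-Tu, was at 52.2 to 60.8 FPKM in Bob1KO libraries and 59.8 to 70.6 FPKM in WT libraries. Of 11 genes listed for the DNA, transcription and RNA of mitochondria, 6 were below 0 with a median of -0.03. *Peo1*, the DNA helicase Twinkle, was at 4.77 to 5.83 FPKM in Bob1KO libraries and 3.45 to 5.02 FPKM in WT libraries. *Lrpprc*, which keeps mitochondrial mRNA stable, was at 9.38 to 10.9 FPKM in Bob1KO libraries and 9.12 to 12.2 FPKM in WT libraries.

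Known regulators of nuclear genes for mitochondria were also read. Of 8 tested, 5 were below 0 with a median of -0.06, and none had an unadjusted P below 0.05. *Nrf1*, an activator of many such genes, was at 23.3, 30.8 and 28.4 FPKM in Bob1KO libraries, against 32.9, 26.5 and 35.6 FPKM in WT libraries. *Pprc1*, a coactivator of the PGC-1 family, was at 9.09, 10.2 and 10.3 FPKM in Bob1KO libraries, against 8.37, 7.34 and 8.24 FPKM in WT libraries. These values did not overlap and were higher in Bob1KO, but did not pass the test (unadjusted P = 0.076, adjusted P = 0.93, limma). *Ppargc1b*, of the same family, was at 4.79 to 5.55 FPKM in Bob1KO libraries and 5.73 to 6.20 FPKM in WT libraries, without overlap and lower in Bob1KO.

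Other gene sets moved with the libraries as well. Of 12 cell cycle genes, 11 were below 0 with a median of -0.38, and their median deviation was lowest in Bob1KO 2 (-0.48) and highest in WT 3 (0.52), the libraries in which the members were lowest and highest. *Pcna*, the sliding clamp of DNA replication, was at 79.8, 80.4 and 86.5 FPKM in Bob1KO libraries, against 108, 98.4 and 113 FPKM in WT libraries (unadjusted P = 0.0089, adjusted P = 0.79, limma). *Mcm5* was at 26.02 to 30.3 FPKM in Bob1KO libraries and 29.9 to 45.5 FPKM in WT libraries. The part of cell cycle activity in the level of the members was not tested. The cytosolic ribosomal proteins followed another order of libraries. Of 76 tested, 51 were below 0 with a median of -0.05, and their median deviations were 0.23, -0.02 and -0.26 in Bob1KO 1, 2 and 3, against -0.26, 0.25 and 0.04 in WT 1, 2 and 3.

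The genes of the set are scattered over the genome. The 74 members lie on 17 chromosomes, with the most, 9, on chromosome 11. Their annotated transcripts have a median length of 1221 bases, against 2628 bases over all genes tested that could be placed. By GENCODE gene spans, 32 of the 74 (43.2%) start within 1000 bases of the start of a protein-coding gene on the other strand, against 17.9% of the 8676 genes tested that could be placed. *Mrpl46* and *Mrps11* are such a pair within the set. *Mrpl50*, for example, starts 83 bases from *Zfp189*, *Mrpl32* 75 bases from the proteasome gene *Psma2*, and *Mrpl49* 59 bases from *Fau*, which encodes a cytosolic ribosomal protein. Cufflinks rows that join such neighbours cannot be told apart from rows of 1 gene.

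Promoter windows of RefSeq (GRCm38.p6), from 250 bases before to 50 bases after a gene's start, were found for 65 of the 74 members. They were searched on both strands for 4 motifs. The NRF1 motif GCGCANGCG, where N is any base, was in 15 of the 65 (23.1%), against 7.03% of 27025 genes with a window and 16.5% of the genes tested. The ETS family motif CCGGAAG, to which GABP binds, was in 22 (33.8%), against 9.93% and 22.3%. The YY1 motif AAGATGGCG was in 8 (12.3%), against 1.64% and 4.06%. The octamer ATGCAAAT, the letters that Oct factors with Bob1 bind, was in 0, against 1.97% and 1.61%. A match is a description of letters and not of binding, and the absence of a match says only that these letters are not in this window. The windows of 4 members named above are given 5′ to 3′ on the strand of the gene, with matches in capitals, to show how the motifs lie about the start. They are those of *Mrps9* (chr1:42850983-42851282, plus strand), with 1 NRF1 match across the start, of *Mrpl45* (chr11:97315466-97315765, plus strand), with 3 NRF1 matches, of *Mrps26* (chr2:130563507-130563806, plus strand), with 1 ETS match and 2 overlapping NRF1 matches, and of *Mrpl35* (chr6:71823735-71824034, minus strand), with 1 YY1 match after the start. The window of *Mrpl45* lies wholly inside the gene span given above, about a start downstream of the first base of that span.
Mrps9: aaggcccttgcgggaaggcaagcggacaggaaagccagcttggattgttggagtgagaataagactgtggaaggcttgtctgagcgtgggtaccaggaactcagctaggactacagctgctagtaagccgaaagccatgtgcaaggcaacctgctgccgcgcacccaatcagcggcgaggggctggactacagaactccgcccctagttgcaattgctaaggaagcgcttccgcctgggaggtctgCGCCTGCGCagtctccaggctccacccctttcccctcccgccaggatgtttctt
Mrpl45: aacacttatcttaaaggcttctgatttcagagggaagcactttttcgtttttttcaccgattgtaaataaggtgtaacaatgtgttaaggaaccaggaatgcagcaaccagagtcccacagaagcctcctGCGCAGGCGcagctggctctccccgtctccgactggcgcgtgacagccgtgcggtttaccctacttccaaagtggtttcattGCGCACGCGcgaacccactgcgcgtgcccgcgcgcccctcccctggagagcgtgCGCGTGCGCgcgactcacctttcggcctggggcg
Mrps26: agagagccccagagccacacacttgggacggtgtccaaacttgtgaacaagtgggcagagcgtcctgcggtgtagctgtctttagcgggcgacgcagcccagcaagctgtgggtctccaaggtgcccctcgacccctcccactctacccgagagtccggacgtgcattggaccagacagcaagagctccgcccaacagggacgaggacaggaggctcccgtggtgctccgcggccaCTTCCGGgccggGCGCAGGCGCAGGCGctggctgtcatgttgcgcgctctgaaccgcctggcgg
Mrpl35: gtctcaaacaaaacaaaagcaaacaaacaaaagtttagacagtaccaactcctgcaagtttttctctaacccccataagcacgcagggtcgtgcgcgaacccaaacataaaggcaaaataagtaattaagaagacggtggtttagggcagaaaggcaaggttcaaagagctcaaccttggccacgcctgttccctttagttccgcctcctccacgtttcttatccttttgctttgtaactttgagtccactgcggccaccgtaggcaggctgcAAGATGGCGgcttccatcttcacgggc

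The window of *Mrps9*, which was lower in Bob1KO libraries without overlap, and that of *Mrpl35*, which changed with the kind of row, hold different motifs, and members with and without a motif were not compared.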

How the data were processed

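Expression was measured by RNA-seq (SMART-Seq v4) in 3 Bob1KO and 3 WT libraries, grouped by their titles. The authors trimmed reads with cutadapt 1.2.1, aligned them to GRCm38 (mm10) with TopHat2 2.0.13, and deposited FPKM from Cufflinks 2.2.1, with confidence bounds, for each library, and a table with 1 FPKM per group, of which the fold change, test statistic, p-value and q-value columns were not used. The annotation version and strandedness are not given in the sources used here.

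Transcripts were assembled within each library, and assembly-named rows hold 94.1% to 95.9% of its FPKM. Rows were matched by position to RefSeq and GENCODE gene spans, with at least 0.5 of the joint length shared or, for a gene without a row, 0.95 of the gene covered, and summed per gene. This gave 23810 genes, after 6 with a status other than OK were dropped, and assigned 90.9% to 91.6% of the FPKM. Overlapping genes cannot be told apart.

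Genes with a mean of at least 1 FPKM were tested with limma 3.58.1 (R 4.3.3) with variance trend on log2(FPKM + 1), by group only, two-sided, with Benjamini-Hochberg adjustment over all genes tested. Changes of low genes are understated on this scale. Python 3.11.15 and pandas 2.3.3 were used for tables. The fit was tested on simulated data with 200 of 10199 genes changed. It recovered 0% of them at 1.5-fold, 53.5% at 2-fold and 88% at 4-fold, with 0, 9 and 10 false calls.

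The files hold no counts. The bounds imply whole fragments, within 0.02, for 67.6% to 74.3% of named rows under 50 fragments, too few for a count test. By these bounds members with 1 row held a median of 520 to 743 fragments per library, and relative depth came from genes of 1 fragment.

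Same-numbered libraries deviated together from their group means (correlations across all genes of 0.12, 0.16 and 0.11, against -0.11 to -0.02 for other numbers), so that the numbers, from the titles, were taken to pair the libraries. Over the members alone these correlations were -0.33, 0.20 and 0.0029, and show no such pairing. The SE and P of the main fit, by group only, do not use the pairing. The replicate number was fitted as a block only as an alternative. The methods describe 3 experiments per group, and p-values measure the spread between these libraries.

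The members and lists were chosen with earlier results of these data known. Values are given for members whose groups do not overlap, those with an unadjusted P below 0.05, the 10 largest differences, the 5 most and 5 least abundant, those at 0, and up to 4 genes with the smallest P of each related list. Other genes, *Mrps36*, *Mrps18a*, *Mrpl39* and *Mrpl55* among them, were named after their values were seen.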

Additional observations from a re-analysis of the deposited data

How the results depend on the processing

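No alternative brought a member to an adjusted P of 0.05 (limma). With any 1 library left out, the members' median log2 difference lay between -0.17 and -0.04. Members below 0 were then between 42 and 62, and genes called between 1 and 7. Members lower at an unadjusted P below 0.05 (limma) were between 0, without Bob1KO 2 (against 2.07% of all genes), and 7, without Bob1KO 1 (9.46%, against 2.71%). Members below without overlap were between 5 and 29, the latter without Bob1KO 1 (39.2%, against 11.6%). The 5, without Bob1KO 2, Bob1KO 3 or WT 3, were 6.76%, against 8.47%, 9.54% and 6.99% of all genes. With all libraries, members lower at an unadjusted P below 0.05 were 4 with no filter on low values (5.41%, against 2.07% of all genes) and 5 with libraries scaled to the same median (6.76%, against 2.91%). Genes called were 1 with a pseudocount of 0.1, 1 with a filter of at least 5 FPKM, and 1 with the replicate block. With that block *Mrps9*, *Mrpl45* and *Mrpl41* were lower at an unadjusted P below 0.05 (limma, 4.05%, against 2.41% of all genes). *Mrps14* was higher at that P (against 3.92% of all genes), and the block changed no other call. Without both replicate 2 libraries, 1 member was lower (1.35%, against 2.33% of all genes) and 2 were higher (against 2.81%) at that P. Without overlap, 13 were below (17.6%, against 18% of all genes) and 4 above (5.41%, against 15.7%). Without both replicate 1 libraries 6 were lower at that P (8.11%, against 3.07%) and 39 below without overlap (52.7%, against 18.8%), with 5 genes called and a median of -0.23. Without both replicate 3 libraries 1 member was lower at that P (1.35%, against 1.03%), 38 were below 0, and 0 genes were called (limma). With like rows only, 33 of 39 members were below 0 (84.6%, against 50.7% of all genes). Those below without overlap were 3 (7.69%, against 4.82%), since fewer were counted.

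Of 20 members named, followed over 20 alternatives, 19 of 400 values changed sign, all of them where libraries were left out, and none passed the test. With 1 library left out, the log2 difference ranged from -0.23 to 0.15 for *Mrpl1*, -0.17 to 0.014 for *Mrpl47*, -0.28 to 0.062 for *Mrpl52*, -0.11 to 0.072 for *Mrps22*, -0.70 to 0.28 for *Mrps25* and -0.045 to 0.40 for *Mrps6,Slc5a3*. Without both replicate 1 libraries it was 0.0056 for *Mrps22*, 0.31 for *Mrps25* and -0.16 for *Mrps6,Slc5a3*. Without both replicate 2 libraries it was 0.080 for *Mrpl19* and 0.028 for *Mrpl52*. Without both replicate 3 libraries it was 0.10 for *Mrpl1*, 0.11 for *Mrpl19*, 0.055 for *Mrpl47*, 0.044 for *Mrpl52* and 0.028 for *Mrps22*. The cause of these changes was not tested. With 3 libraries a group and no counts, differences of the size seen in most members cannot be told from the spread between libraries.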
